A study of Mus musculus with 4 samples.

Results

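The EGF-family ligands and ErbB receptors were followed as 10 genes, chosen by symbol and found as 10 rows among the 22609 genes of the count table. They comprise 6 ligands, namely Areg, Ereg, Hbegf, Btc, Tgfa and Nrg1, and 4 receptors, namely Egfr, Erbb2, Erbb3 and Erbb4; the table writes them as areg, ereg, hbegf, btc, tgfa, nrg1, egfr, erbb2, erbb3 and erbb4. RNA sequencing was done on cells sorted from the tumours of a spontaneous model of pancreatic ductal adenocarcinoma in mice of the C57BL/6 background. All cells carried FAP, a surface protease of tumour stroma. The sort then separated them by the sialomucin CD34, giving 2 libraries of FAP+ CD34+ and 2 of FAP+ CD34- cells, titled as biological replicates. No source used here gives the alleles that drive the tumours, the age of the mice or the number of animals per library, so p-values measure the spread between these libraries.

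EGF-family ligands are made as transmembrane precursors, which cell-surface proteases cut to release the soluble growth factor. The released ligand joins ErbB receptors into pairs, whose tyrosine kinases then signal through Ras-ERK and PI3K-Akt. Amphiregulin (Areg) and TGF-alpha bind EGFR, while epiregulin (Ereg), HB-EGF and betacellulin (Btc) bind EGFR and ErbB4. Neuregulin 1 (Nrg1) binds ErbB3 and ErbB4. ErbB2 has no known soluble ligand and ErbB3 has a weak kinase, so both act with a partner. In pancreatic cancer these ligands are known as signals between stroma and carcinoma cells.

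Promoter sequence was looked at for the most abundant ligand and receptor with an entry, Areg and Egfr, and for Btc, which lies next to Areg on chromosome 5. In RefSeq's GRCm38.p6 gene order Epgn, Ereg, Areg and Btc are consecutive protein-coding genes there. Of the 10 members 6 have a promoter entry, and Ereg, Hbegf, Nrg1 and Erbb3 have none. Each sequence below runs 5′ to 3′ from 250 bases before to 50 after the annotated start, at chr5:91139349-91139648 (plus strand) for Areg, chr5:91402945-91403244 (minus strand) for Btc and chr11:16751953-16752252 (plus strand) for Egfr. Capitals mark matches, on either strand, to the cAMP response element TGACGTCA, the AP-1 site TGANTCA, the TATA box TATAAA or the GC box GGGCGG.
Areg: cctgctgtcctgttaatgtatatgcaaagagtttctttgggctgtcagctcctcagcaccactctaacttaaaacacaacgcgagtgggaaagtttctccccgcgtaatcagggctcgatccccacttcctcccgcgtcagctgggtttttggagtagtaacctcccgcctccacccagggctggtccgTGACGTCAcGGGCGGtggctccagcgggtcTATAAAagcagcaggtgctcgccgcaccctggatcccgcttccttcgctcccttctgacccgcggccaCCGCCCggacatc
Btc: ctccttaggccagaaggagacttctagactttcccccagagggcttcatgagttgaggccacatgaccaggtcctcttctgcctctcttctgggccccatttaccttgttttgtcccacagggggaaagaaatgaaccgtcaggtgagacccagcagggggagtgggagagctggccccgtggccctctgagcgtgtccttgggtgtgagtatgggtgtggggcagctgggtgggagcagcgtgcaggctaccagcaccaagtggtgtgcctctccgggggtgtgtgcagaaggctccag
Egfr: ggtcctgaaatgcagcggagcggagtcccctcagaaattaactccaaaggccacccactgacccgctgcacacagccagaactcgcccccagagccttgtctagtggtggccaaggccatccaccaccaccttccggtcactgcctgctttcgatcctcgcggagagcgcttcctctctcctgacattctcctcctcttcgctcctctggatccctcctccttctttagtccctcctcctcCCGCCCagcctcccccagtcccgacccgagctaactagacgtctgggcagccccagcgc
The Areg window held 1 cAMP response element, beginning 61 bases before the start, 1 TATA box, beginning 31 bases before it, and 2 GC boxes. The Egfr window held 1 GC box and the Btc window no match to any of the 4 motifs, and no matches overlapped. Among all 32851 promoter windows of this length, 1.79% held the cAMP response element, 13.6% the TATA box, 0.17% both, 35.7% the GC box and 7.81% the AP-1 site. CpG dinucleotides numbered 21 in the Areg window, 15 in Egfr and 5 in Btc, against a median of 7.

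Totals were 10322354 to 14633561 counts per library. Levels are given as CPM, counts scaled to the library's own total, and, where genes are compared with each other, as the RPKM that the authors deposited, which divide by gene length. For Cd34 the CD34+ libraries gave 143 and 293 CPM (replicates 1 and 2, here and throughout) and the CD34- libraries 18.3 and 23.9 CPM, so the transcript followed the label. Fap lay the other way, with 79.0 and 39.8 CPM in CD34+ against 142 and 136 CPM in CD34- cells (adjusted p = 0.23, edgeR). All 12 fibroblast markers, led by Col1a2, were at 5 CPM or more in every library, and their summed level was 40770 to 45620 CPM. Markers of other cells were present too. Summed CPM of 17 epithelial genes (led by Krt8, with Tff1 at 0 counts in all libraries) was 1094 and 716.6 in CD34+ and 940.5 and 579.7 in CD34- libraries. For 17 myeloid genes (led by Cd14) it was 339 and 197.7 against 213.3 and 137.8, and for 12 endothelial genes (led by Vwf) 125 and 88.06 against 56.89 and 52.96. The 8 mesothelial genes (led by Wt1) summed to 399.2 and 234.8 against 249.7 and 158.3 CPM. In that sum Krt19, which is also among the epithelial genes, held 133 and 89.5 against 112 and 58.9 CPM. The 9 pericyte genes (led by Cspg4) summed to 507.3 and 453.4 against 633.2 and 738.3 CPM. The pericyte sum hides larger differences of single genes. Rgs5 was at 2.13 and 7.33 against 45.5 and 89.7 CPM, and Mcam at 27.9 and 16.5 against 103 and 103 CPM. Of the 9 pericyte genes, 5 were lower in both CD34+ libraries than in both CD34- libraries, and 0 were higher in both. Acinar, lymphoid, mast cell and Schwann or neuronal lists, led by Ctrb1, Il2rg, Mcpt8 and Tubb3, each summed to at most 69.02 CPM in any library.

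A few ligands made up most of the ligand RNA. By RPKM, Hbegf, Ereg and Areg together held 90.2% and 94.2% of the summed level of the 6 ligands in the libraries of CD34+ cells and 96.4% and 97.2% in those of CD34- cells. Among the receptors, Egfr and Erbb2 held 97.7% to 99.5% of the summed level. Over the 4 libraries the order by mean RPKM was Hbegf (37.7 ± 10.5, SD, n = 4), Ereg (26.2 ± 16.9), Areg (23.2 ± 5.74), Egfr (10.6 ± 2.67), Nrg1 (3.09 ± 2.45), Erbb2 (2.90 ± 0.568), Btc (1.11 ± 0.836), Tgfa (0.322 ± 0.115), Erbb3 (0.125 ± 0.0524) and Erbb4 (0.0190 ± 0.0244). Neighbours in this order were separated in all 4 libraries except at 3 places. Hbegf exceeded Ereg in 3 libraries, Ereg exceeded Areg in 2, and Nrg1 exceeded Erbb2 in 1. Hbegf lay between the 90.7 and 94.5 percentile of all genes by RPKM within a library, Areg between 87.6 and 91.9, Egfr between 79.3 and 82.3 and Erbb2 between 61.5 and 63.4, so these placed alike in every library. Tgfa lay between 40.5 and 44.6 and Erbb3 between 33.3 and 36.6.

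**Figure D1:**
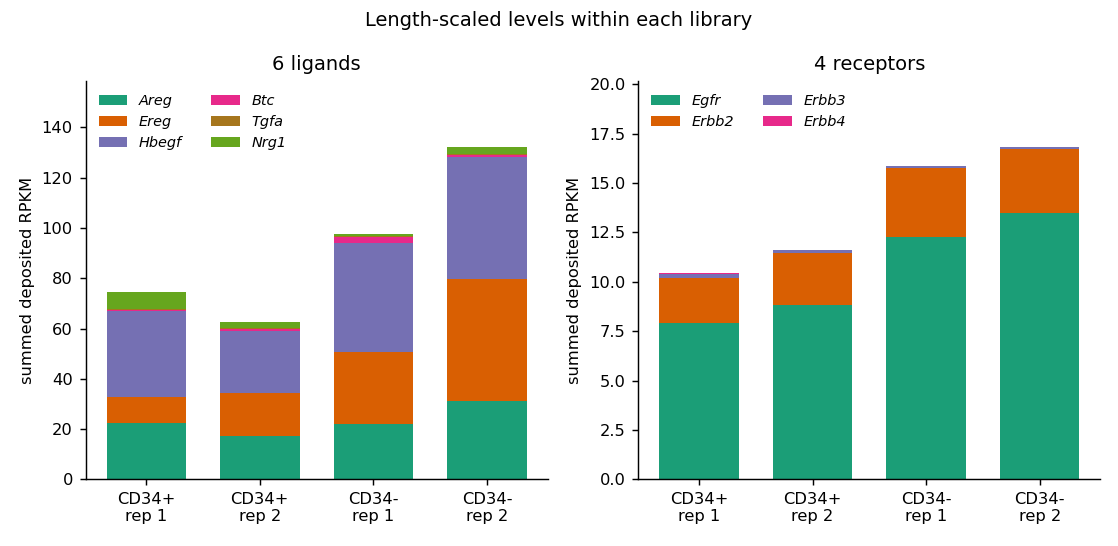
Stacked bars give the deposited RPKM of the 6 ligands (left) and 4 receptors (right) in each of the 4 libraries, with colours for genes. Hbegf, Ereg and Areg fill 90.2% to 97.2% of the ligand bars and Egfr 75.9% to 80.3% of the receptor bars; bar heights also carry the authors' library scaling.

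In the second length-scaled table, the bias-adjusted FPKM, Ereg stood lower. Its mean was 8.79 FPKM, and its RPKM was 2.54 to 3.48 times its FPKM in the 4 libraries, where the median of this ratio over 13779 tested genes was 1.18 and the 95th percentile 2.42. Ereg ranked 3, 3, 2 and 1 among the 10 members by RPKM (CD34+ replicates 1 and 2, then CD34- replicates 1 and 2) and 5, 4, 4 and 3 by FPKM. Areg, with 22.3 FPKM, Hbegf, with 23.3 FPKM, and Egfr, with 10.3 FPKM, were then the leading members. In RefSeq's GRCm38.p6, Ereg overlaps the non-coding gene Gm19610, and without a stated strand setting reads of overlapping genes cannot be told apart. Hbegf, Egfr, Erbb2, Erbb3 and Erbb4 also overlap annotated genes, none of which is in the count table under its current symbol. The RPKM of Btc, which overlaps no annotated gene, was 2.14 to 2.82 times its FPKM. For Erbb2, which overlaps Mien1, the ratio was 0.832 to 1.04. The part of overlapping genes in these ratios was not tested.

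Between CD34+ and CD34- cells no member passed the test. edgeR's quasi-likelihood test called 0 of the 9 members that passed its filter on low counts, at an adjusted p of 0.05 over 13875 genes, and it called 0.0% of all genes. At an unadjusted p of 0.05 the member count was 1, Ereg, against 16.5% of all genes. DESeq2, limma voom and edgeR's exact test called 0 members as well, and calls over all genes were 3.63%, 0.0% and 4.87%. The other alternatives also called 0 members, while their calls over all genes reached 0.0144% with library totals or upper-quartile scaling, 0.0149% with a filter of 1 CPM, 1.58% with no filter and 0.447% with the replicate block. On log2 RPKM they were 1.43% and 1.07% (pseudocounts 1 and 0.1), and on log2 FPKM 0.637%. The libraries of the groups did not overlap by CPM for 4 of these 9 members, Nrg1 and Erbb3 higher and Ereg and Egfr lower in CD34+ cells, where over all genes tested 50.1% did not overlap, 23.4% higher and 26.6% lower. The members' share thus lay near the background. For Egfr the separation held by column totals only. Its TMM-scaled values overlapped, at 86.1 and 71.8 CPM in CD34+ and 85.1 and 97.1 CPM in CD34- libraries. An exact permutation test of 2 libraries against 2 cannot give a two-sided p below 0.333 and was not run.

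**Figure D2:**
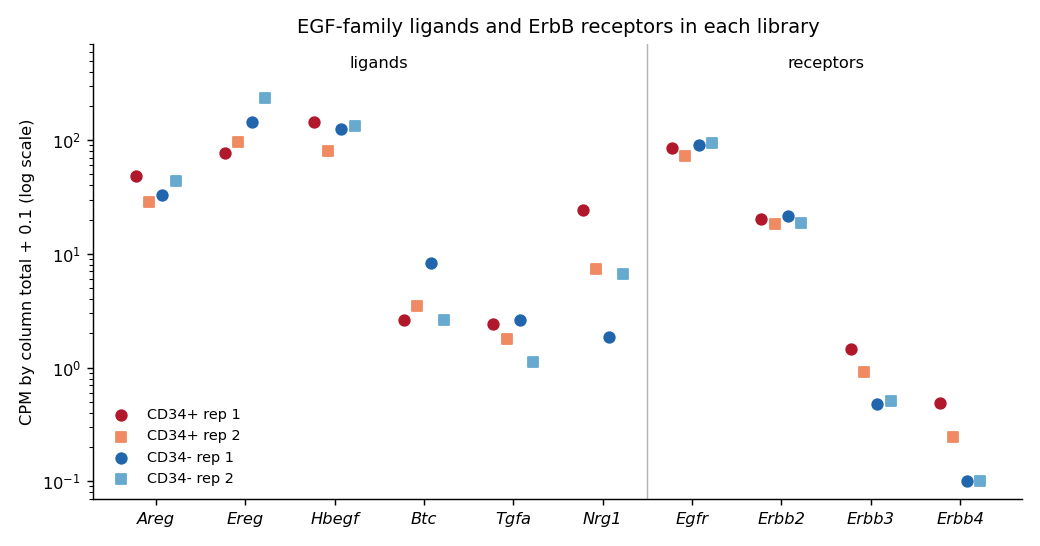
Points give the CPM of each of the 10 genes in each library on a log axis after adding 0.1, with colour and shape for group and replicate. Ereg is lower in both CD34+ libraries (76.2 and 97.0 CPM) than in both CD34- libraries (145 and 234 CPM), while Areg, Hbegf and Erbb2 overlap, and Erbb4 has 0 counts in both CD34- libraries.

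Among the ligands of EGFR, Ereg showed the lowest p. CD34+ cells had 76.2 and 97.0 CPM of it, and CD34- cells 145 and 234 CPM. Both CD34+ libraries lay below both CD34- libraries. The log2 fold change, CD34+ over CD34-, was -1.13 (SE 0.35, unadjusted p = 0.0165, adjusted p = 0.23, edgeR quasi-likelihood test). Over 19 alternative settings it lay between -1.52 and -0.654, all negative, and its adjusted p between 0.0697 and 0.654. The value nearest 0 came without CD34- replicate 2, the library with the highest level. Within a library the ratio of Ereg to Areg counts, which needs no scaling between libraries, was 1.59 and 3.39 in CD34+ and 4.45 and 5.41 in CD34- libraries. On FPKM that ratio was 0.194 and 0.394 against 0.516 and 0.451, again without overlap. Against Hbegf the ratio of Ereg counts overlapped between groups, at 0.523 and 1.21 against 1.15 and 1.75. The ratio of Ereg to Egfr was apart by counts, at 0.901 and 1.34 against 1.61 and 2.51. On FPKM it overlapped, at 0.597 and 0.822 against 0.806 and 1.06. A ratio without Ereg, that of Areg to Hbegf counts, was apart as well, at 0.329 and 0.355 against 0.259 and 0.324. The FPKM ratio of Areg to Hbegf overlapped, at 0.965 and 1.05 against 0.729 and 1.12.

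Areg, the neighbour of Ereg, was at 47.9 and 28.6 CPM in CD34+ and 32.5 and 43.3 CPM in CD34- libraries. The CD34- values lay inside the range of the CD34+ pair. Its log2 fold change was 0.02 (95% interval -0.83 to 0.88, adjusted p = 0.978, edgeR), so a change of less than about this width could not be resolved. The sign turned in 10 of 19 alternatives. Hbegf, whose product is held at the surface by heparan sulphate, was at 146 and 80.4 CPM in CD34+ and 126 and 134 CPM in CD34- libraries. CD34+ replicate 2 was the low library, and the groups overlapped (log2 fold change -0.18, 95% interval -1.02 to 0.67, adjusted p = 0.819, edgeR). Without it the value was 0.18.

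Btc and Tgfa were low in all libraries. Btc was at 2.52 and 3.37 CPM in CD34+ and 8.25 and 2.53 CPM in CD34- libraries, from 26, 46, 109 and 37 counts. CD34- replicate 1 was high, and the other 3 libraries lay together. With all 4 libraries the log2 fold change was -0.82 (SE 0.62; adjusted p = 0.532, edgeR), and without that library it was 0.14. Tgfa was at 2.33 and 1.69 CPM in CD34+ and 2.497 and 1.03 CPM in CD34- libraries. These rest on 24, 23, 33 and 15 counts, and the groups overlapped. The fold change was within its error (log2 0.23, SE 0.60, adjusted p = 0.866, edgeR).

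Nrg1, the ligand of ErbB3 and ErbB4, varied most among the members from 5 CPM up. It was at 24.4 and 7.25 CPM in CD34+ and 1.74 and 6.56 CPM in CD34- libraries, from 252, 99, 23 and 96 counts. CD34+ replicate 1 was high and CD34- replicate 1 low, while replicates 2 of both fractions lay close together. By CPM the groups were apart only by the gap between these replicates 2, at 7.25 against 6.56 CPM. On RPKM they crossed, at 2.51 in CD34+ against 2.69 in CD34-, and likewise on FPKM, at 2.42 against 2.68. The log2 fold change was 1.91 (SE 0.83, unadjusted p = 0.0585, adjusted p = 0.319, edgeR). It was 0.75 without CD34+ replicate 1, 2.53 without CD34+ replicate 2, 1.18 without CD34- replicate 1 and 3.27 without CD34- replicate 2. The summed epithelial, myeloid, endothelial and mesothelial markers were each highest in CD34+ replicate 1 and lowest in CD34- replicate 2. Nrg1 was highest in CD34+ replicate 1 and lowest in CD34- replicate 1. At an unadjusted p of 0.05, 7 of 12 endothelial, 4 of 7 mesothelial and 4 of 16 epithelial markers tested were higher in CD34+ cells and 0 lower. Of 17 myeloid markers, 2 (11.8%) were higher and 1 lower. Of all genes 9.81% were higher. At that p, 4 of 9 pericyte markers were lower in CD34+ cells and 0 higher, where 6.65% of all genes were lower. Without regard to p, 9 endothelial markers lay higher in both CD34+ libraries than in both CD34- libraries, and 2, Emcn and Esam, lay lower. The part of these cell types in the Nrg1 values and in the pathway lists below was not tested. In bulk libraries fewer cells of a type and less RNA per cell cannot be told apart. In RefSeq's GRCm38.p6, Nrg1 overlaps 9 annotated genes, of which Gm3985 is also in the count table.

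**Figure D3:**
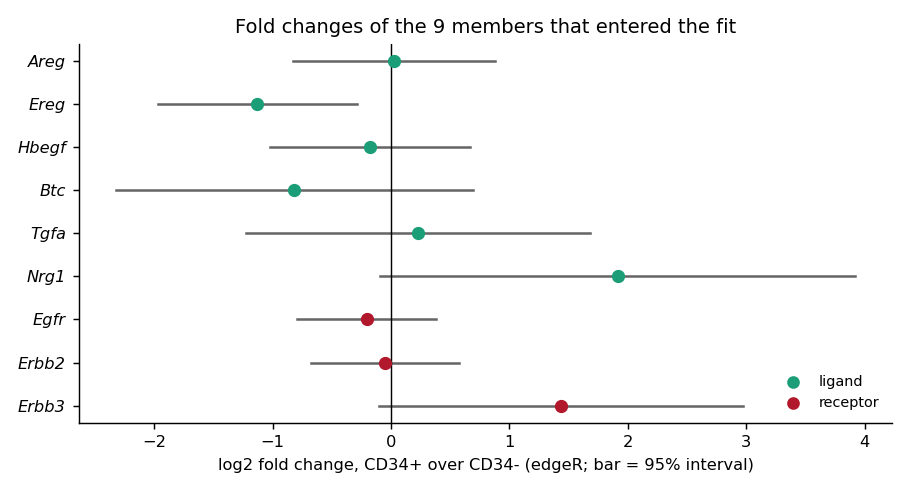
Points give the log2 fold change (CD34+ over CD34-) of the 9 members that entered the fit and bars the 95% interval, the estimate ± its SE times the t quantile, unadjusted. The interval of Ereg, from -1.97 to -0.29, does not reach 0, while its adjusted p of 0.23 misses the threshold; those of the other 8 include 0.

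The receptors differed far more between genes than between fractions. Egfr was at 84.5 and 72.3 CPM in CD34+ and 89.6 and 93.3 CPM in CD34- libraries. By column totals the CD34- values were the higher, by little, and under TMM scaling the groups overlapped. The log2 fold change was -0.21 (SE 0.24, 95% interval -0.79 to 0.38, adjusted p = 0.691, edgeR). Erbb2, the shared partner of the family, was at 20.1 and 18.1 CPM against 21.4 and 18.7 CPM, with a log2 fold change of -0.05 (95% interval -0.68 to 0.58, adjusted p = 0.936, edgeR). These were the members of the narrowest intervals. In each library Egfr counts were 4.0 to 4.98 times those of Erbb2, and per length, by RPKM, 3.35 to 4.17 times.

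Erbb3 was close to the limit of detection. It had 14 and 11 counts in CD34+ and 5 and 6 counts in CD34- libraries, or 1.36 and 0.806 CPM against 0.378 and 0.410 CPM. Both CD34+ values were above both CD34- values, but at a log2 fold change of 1.44 (SE 0.63) the gene did not pass (adjusted p = 0.325, edgeR). Erbb3 is known from epithelium and Schwann cells. The Schwann cell factor Sox10 had 0 and 1 counts in CD34+ and 0 and 0 counts in CD34- libraries, and the whole Schwann and neuronal list summed to 52.41 and 67.99 against 62.56 and 69.02 CPM. Epithelial markers were present in all 4 libraries at the levels given above, and their part in the Erbb3 counts was not tested. Erbb4 had 4 and 2 counts in CD34+ libraries and 0 in both CD34- libraries, where a count of 0 allows up to 3 counts, or 0.227 and 0.205 CPM (counting error only). It did not pass the filter, and its difference was not detectable at this depth.

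Of the other EGF-family ligands, Nrg2 stood out by replicate. It was at 1.07 and 15.5 CPM in CD34+ and 0.151 and 2.32 CPM in CD34- libraries, high in replicate 2 of each fraction. Its log2 fold change was 2.68 with an SE of 1.42 (adjusted p = 0.39, edgeR). Egf, at 0.678 to 1.47 CPM, and Nrg4, at 0.342 to 1.29 CPM, overlapped between groups. Epgn, at 0.388 to 0.806 CPM, and Nrg3, with at most 0.678 CPM, did not enter the fit.

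The wider pathway was described by 8 lists with 132 genes in the table, of which 128 were tested and 0 were called by edgeR's quasi-likelihood test. Of the listed genes each could test, DESeq2 called 8 of 129 (2 higher, 6 lower), where it called 3.63% of all genes. The exact test of edgeR called 7 of 128 (1 and 6), against 4.87% of all genes. With no filter the quasi-likelihood test called 6 of 132, all lower, against 1.58%, and limma voom 0 of 128, against 0.0%. At an unadjusted p of 0.05, 6 lay higher (4.69%) and 16 lower (12.5%) in CD34+ cells, against 9.81% and 6.65% of all genes. Groups did not overlap for 20 higher (15.6%) and 55 lower (43.0%), against 23.4% and 26.6% of all genes. The median log2 fold change of these genes was -0.12 and that of all genes tested -0.02. Sheddases, which release the ligands, had a median of -0.09 over 14 genes, with 1 lower at an unadjusted p of 0.05 and 0 higher. That gene was Adam10, a sheddase of betacellulin, at 33.8 and 62.3 CPM against 79.4 and 94.6 CPM. Adam17, the main sheddase of Areg, Ereg, Hbegf and Tgfa, named here for that role and not by the rule, was at 55.1 and 65.7 CPM against 66.7 and 78.7 CPM (log2 fold change -0.26, unadjusted p = 0.351, edgeR). Next to Adam10 in p were Rhbdl3, Bace1 and Adam19, with log2 fold changes of 0.70, -0.54 and -0.64.

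Negative regulators of the receptors had a median log2 fold change of -0.37 over 14 genes, 12 of them negative, with 3 lower and 0 higher at an unadjusted p of 0.05. Of all 13875 genes tested, 7119 were negative. At that p 6.65% of them lay lower and 9.81% higher, which is the background for the lists below too. Sh3kbp1, encoding the Cbl partner CIN85 in receptor uptake, was at 55.3 and 52.4 CPM in CD34+ and 136 and 133 CPM in CD34- cells, a log2 fold change of -1.30 (SE 0.23, unadjusted p = 0.00127, adjusted p = 0.171, edgeR). The 2 libraries of each fraction lay close together and the fractions far apart, though the adjusted p missed the threshold. Socs5 (45.0 and 75.7 against 117 and 110 CPM) and Rnf41, encoding the ErbB3 ubiquitin ligase Nrdp1 (39.0 and 36.3 against 59.4 and 53.0 CPM), were the others. Cblc, a ubiquitin ligase gene named outside the rule since its mean is under 5 CPM, lay the other way, at 4.17 and 2.56 against 1.44 and 1.43 CPM (unadjusted p = 0.0531, edgeR). Ptpn12 had a log2 fold change of -0.47.

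Feedback regulators of ERK had the lowest median of the 8 lists, -0.51 over 14 genes, with 3 lower and 0 higher at an unadjusted p of 0.05. Dusp6, the ERK phosphatase, was at 14.8 and 25.9 CPM in CD34+ and 192 and 80.5 CPM in CD34- cells, a log2 fold change of -2.70 (SE 0.47, unadjusted p = 0.00113, adjusted p = 0.171, edgeR). Dusp4 (9.11 and 5.05 against 40.7 and 15.03 CPM) and Spred1, an inhibitor of Ras-ERK signalling (14.1 and 31.2 against 67.5 and 63.3 CPM), lay the same way. Spry2 lay the other way, at 20.1 and 24.5 against 14.3 and 14.8 CPM (unadjusted p = 0.0594, edgeR). All 4 of these genes, named for having the lowest p of their list, were without overlap between the groups, as were 50.1% of all genes tested. None of the 4 passed after adjustment in edgeR's quasi-likelihood test.

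In the Ras-ERK cascade and its adaptors the median was -0.21 over 27 genes, with 5 lower and 0 higher at an unadjusted p of 0.05. The adaptor gene Nck2 (16.3 and 19.9 against 57.0 and 50.02 CPM), the kinase gene Map2k1 (76.8 and 68.4 against 153 and 128 CPM) and the phospholipase gene Plcg1 (10.5 and 12.1 against 22.3 and 24.4 CPM) had the smallest p. Their adjusted p lay from 0.162 to 0.215 (edgeR). The PI3K and Akt branch had a median of -0.41 over 13 genes, with 2 lower and 0 higher. Among them was Pik3r3, encoding a regulatory subunit of PI3K, at 9.69 and 9.52 against 15.7 and 26.5 CPM (unadjusted p = 0.0224, adjusted p = 0.249, edgeR). Pik3r1, another regulatory subunit gene, had a log2 fold change of -0.54 (unadjusted p = 0.0785, adjusted p = 0.35, edgeR). Neither gene passed after adjustment.

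Transcripts induced by growth factors had a median of 0.35 over 27 genes, with 3 higher and 1 lower at an unadjusted p of 0.05. Myc (238 and 236 against 88.6 and 137 CPM) and the AP-1 gene Fosb (2722 and 2575 against 736.1 and 1588 CPM) were higher in both CD34+ libraries. The third was Fosl1, at 9.59 and 3.30 against 1.66 and 1.503 CPM, named outside the rule since its mean is under 5 CPM. The ETS factor gene Etv5 lay lower (25.2 and 26.0 against 42.2 and 40.1 CPM), and Egr2 followed with a log2 fold change of -0.67. Immediate early genes are known to answer to many stimuli besides growth factors. Partners of the ligands and receptors had a median of 0.48 over 16 genes, with 3 higher and 1 lower. Sdc1, encoding the heparan sulphate carrier syndecan 1, was at 233 and 228 against 1128 and 643.5 CPM. Itga5 (1128 and 304.7 against 214 and 140 CPM), Itgb4 (36.3 and 10.8 against 8.93 and 4.58 CPM) and Muc1 (41.8 and 34.2 against 23.3 and 21.1 CPM) lay the other way, and Muc1 is also 1 of the epithelial markers. None of these passed after adjustment (adjusted p from 0.171 to 0.305, edgeR quasi-likelihood test).

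**Figure D4:**
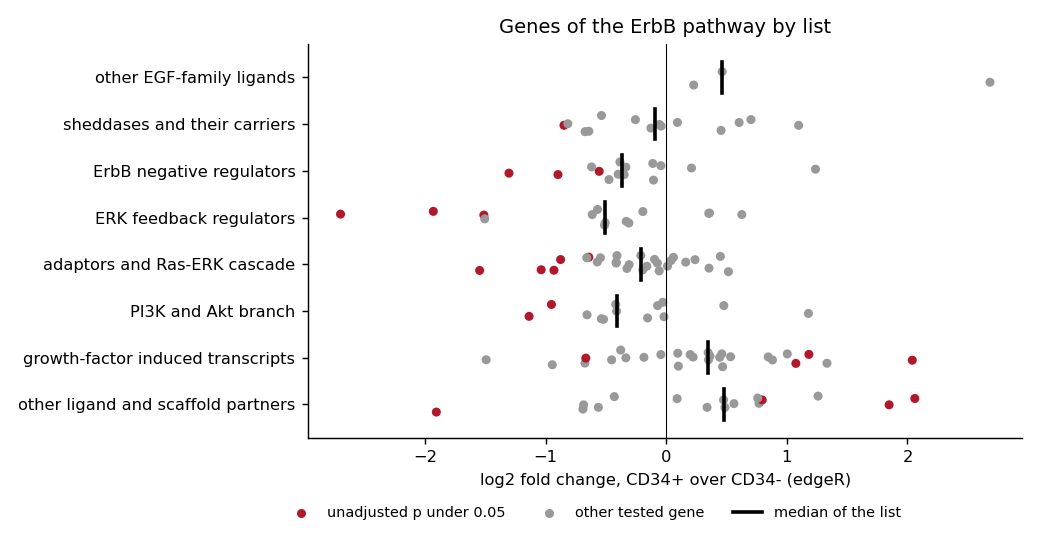
Each point is the log2 fold change (CD34+ over CD34-) of a tested gene of 1 of the 8 pathway lists, red where the unadjusted p is under 0.05, and the black bar is the list's median. The medians run from -0.51 (ERK feedback regulators) to 0.48 (other ligand and scaffold partners). No gene passed after adjustment in edgeR's quasi-likelihood test, which the points are from. DESeq2 called 8 of 129 genes of these lists, where it called 3.63% of all genes.

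Patterns over the 4 libraries were also compared by the root mean square difference of centred log2(CPM + 1), over 10522 genes with a mean of at least 5 CPM. Among the 5 nearest to Hbegf, the ligand of the highest mean RPKM, were Csnk1g2, Kctd11 and Tollip, at distances of 0.034 to 0.062. Nearest to Egfr, the receptor of the highest mean RPKM, were Tmem184b, 1200011i18rik, Gm17066, 2700081o15rik and Cdc27, at 0.025 to 0.034. With only 4 libraries, such distances are a description.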

How the data were processed

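The authors deposited raw read counts for 22609 genes. Bowtie2, TopHat2, HTSeq, edgeR and the mouse build mm9 appear in the submitters' processing notes; no source used here gives versions, annotation or strand setting. Per the labels' protocols, RNA was amplified with MessageAmp, so copies are not independent molecules. The authors also deposited RPKM, bias-adjusted FPKM (22558 genes) and estimated counts of fragments, which were rounded here. Each table holds 14 further columns that match no sample and were not used.

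CPM used column totals. The main test was edgeR 4.0.16 (R 4.3.3), quasi-likelihood, TMM scaling and filterByExpr, in all 4 libraries with the group as the only term, two-sided, with Benjamini-Hochberg adjustment at 0.05. The fit has 2 residual and 4.17 prior degrees of freedom. The SE is the fold change over the square root of F. Groups and replicate numbers come from the titles. Alternatives were DESeq2 1.42.0, limma 3.58.1 (voom, and log2 of RPKM or FPKM with a pseudocount), other scalings and filters, a replicate block and leaving out each library. Scripts were tested on simulated data. Named were all members, the other EGF-family ligands, from each pathway list up to 4 genes of lowest p with a mean of 5 CPM, the most abundant marker per cell type, Fap and Cd34, and the 5 genes most like Hbegf and Egfr; some genes that this rule names are not reported here. The members and lists were chosen with earlier results of these data known.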

Additional observations from a re-analysis of the deposited data

How the results depend on the processing

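No member was called in any of the 19 alternatives, by edgeR, DESeq2 or limma, and of 160 log2 fold changes of members under them 143 kept their direction. The other 17 were as follows. Areg was -0.027 with DESeq2, -0.013 with limma voom, -0.071 with no filter and -0.002 with the replicate block. On log2 of RPKM or FPKM it was -0.398 (RPKM + 1, with or without a filter), -0.414 (RPKM + 0.1) and -0.396 (FPKM + 1), where the median over all genes was -0.405 (RPKM + 1), -0.489 (RPKM + 0.1) and -0.413 (FPKM + 1) with a filter but -0.04 on RPKM + 1 without one. Without 1 library each, Areg ranged from -0.428 to 0.34, Hbegf from -0.702 to 0.178, Btc from -1.39 to 0.136, Tgfa from -0.232 to 0.871 and Erbb2 from -0.156 to 0.017. Erbb2 was 0.028 with upper-quartile scaling and Tgfa -0.044 on log2 RPKM + 1 without a filter. The cause was not tested.

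Over all genes the count of calls, 0 in the main test, was 527 with DESeq2 (334 higher, 193 lower), 676 with edgeR's exact test (470 and 206), 331 with no filter (194 and 137), 62 with the replicate block (39 and 23), 162 on log2 RPKM + 1 (47 and 115), 122 on log2 RPKM + 0.1 (34 and 88), 71 on log2 FPKM + 1 (22 and 49), and 2 with library totals, upper-quartile scaling or a filter of 1 CPM. For the pathway lists it was 8 with DESeq2, 7 with the exact test, 6 with no filter, 4 on log2 RPKM + 1, 3 with a pseudocount of 0.1 and 1 on log2 FPKM + 1. These were out of 129, 128, 132, 119, 119 and 119 listed genes tested. The shares called over all genes were 3.63%, 4.87%, 1.58%, 1.43%, 1.07% and 0.637%, in the same order. The replicate block moved no member past the threshold. Deviations of same-numbered libraries correlated at 0.247 over genes, but no label says what a number marks. By FPKM the mean level was 8.79 for Ereg, 23.3 for Hbegf and 0.0812 for Erbb3, further from their RPKM than the larger of the SDs within the 2 groups. Of 20 group means in CPM, 0 moved by more than 1 SD under TMM scaling. Depth limits Erbb3 and Erbb4, with at most 14 counts in a library.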
